A study of Mus musculus with 20 samples.

Results

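The genes described here are those of fatty acid beta-oxidation and ketogenesis in mouse liver, 30 genes taken by symbol from a table of 48440 genes. All 30 were measured in each of 20 livers, and all 30 were among the 16071 genes that passed the filter on low counts. The livers came from wild-type female mice (C57BL/6 in the labels, C57BL/6J in the study's methods), given as 8 weeks old, in 4 groups of 5 mice treated for 5 weeks. Tissues were taken at the end of those 5 weeks. Every mouse was injected intraperitoneally, semiweekly, with 5 mg/kg of an antibody, either an isotype IgG2a or αACBP. The latter is a monoclonal antibody that neutralizes the product of Dbi, acyl coenzyme A binding protein or ACBP. Every mouse drank water with ethanol, either as vehicle alone or with corticosterone (CORT, the main glucocorticoid of rodents) dissolved in it at 100 µg/ml. The 4 groups are named by antibody and drink, with isotype or αACBP first (Isotype + Vehicle and so on), and no untreated mice without antibody were among them. Each liver is 1 mouse.

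Beta-oxidation shortens fatty acids by repeated cycles of dehydrogenation, hydration, a second dehydrogenation and thiolytic cleavage. Long-chain fatty acids enter the mitochondrion as carnitine esters, very long and branched chains are shortened in the peroxisome, and the acetyl-CoA that is made can leave the liver as ketone bodies. Many genes of these steps are known targets of the fasting receptor PPARα, and the glucocorticoid response is a further known input in liver.

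Total counts on genes were 14934926 to 20299999 per liver, so 3 counts correspond to between 0.145 and 0.205 CPM (counts relative to the TMM-normalized library size), a floor that covers counting error only. The hepatocyte markers Alb, Apoa1, Ttr, Serpina1c, Cps1, Hnf4a and Apob were detected in all 20 livers. Single livers stood apart in these 30 genes. Liver 5 of Isotype + CORT was the highest of its group for 22 of them, liver 4 of Isotype + Vehicle was the lowest of its group for 23, and liver 5 of αACBP + CORT was the lowest for 21. Liver 5 of αACBP + Vehicle was the lowest for 18 and had the lowest summed level of the hepatocyte markers, 38100 CPM, where the other 19 livers had at least 68000 CPM. Its TMM normalization factor was 1.29, where the others had at most 1.08. Counts on genes of the mitochondrial genome had their highest shares in liver 4 of Isotype + Vehicle (8.96%) and liver 5 of αACBP + CORT (9.03%). The median of the 20 livers was 5.325%. Livers 2 and 4 of αACBP + Vehicle had 8.25% and 7.94%, and were highest in their group for 12 and 9 genes. What these measures contribute was not tested. The summed Kupffer cell and macrophage markers were 327 to 636 CPM in Isotype + Vehicle and 122 to 360 in Isotype + CORT. They were 453 to 768 in αACBP + Vehicle and 441 to 600 in αACBP + CORT. Those of both CORT groups did not overlap, while those of both isotype groups did. By the limit for a call given in the methods, 5 of these 8 markers were called lower with CORT under isotype (median log2 fold change -1.14). With αACBP under CORT, 2 of the 8 were called higher (median 0.99). The summed B cell markers were 41.5 to 62.3 CPM, 3.58 to 18.7, 25 to 79.7 and 7.4 to 32.3 in the same order of groups, so those of both isotype groups did not overlap. The summed T and NK cell markers were 4.77 to 11.6 CPM, 0.0644 to 3.39, 3.53 to 9.53 and 2.81 to 6.51. Those of both isotype groups did not overlap either. Each T and NK cell marker was at 0 in 2 to 7 livers. The sum of 0.0644 CPM, in liver 5 of Isotype + CORT, lay below that liver's floor of 0.193 CPM. With CORT under isotype, 1 of 5 B cell markers was called lower, and none of the 6 T and NK cell markers tested was called. In bulk RNA, fewer cells of a type and less RNA per cell cannot be told apart, and the part of cell composition in the results below was not tested.

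The median of the 30 genes in each liver gives a first view. On the log2(CPM + 1) scale and relative to the mean of Isotype + Vehicle, this median lay between -0.25 and 0.17 in Isotype + Vehicle, between 0.10 and 1.03 in Isotype + CORT, between -0.76 and -0.12 in αACBP + Vehicle and between -0.29 and 0.49 in αACBP + CORT. The same median over all genes tested stayed between -0.12 and 0.02 in the 20 livers. TMM normalization centres the bulk of the genes, so this all-gene median is largely fixed by it. The same holds for the medians over all genes given below. The group mean was highest in Isotype + CORT for 25 of the 30 genes and lowest in αACBP + Vehicle for 24.

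**Figure D1:**
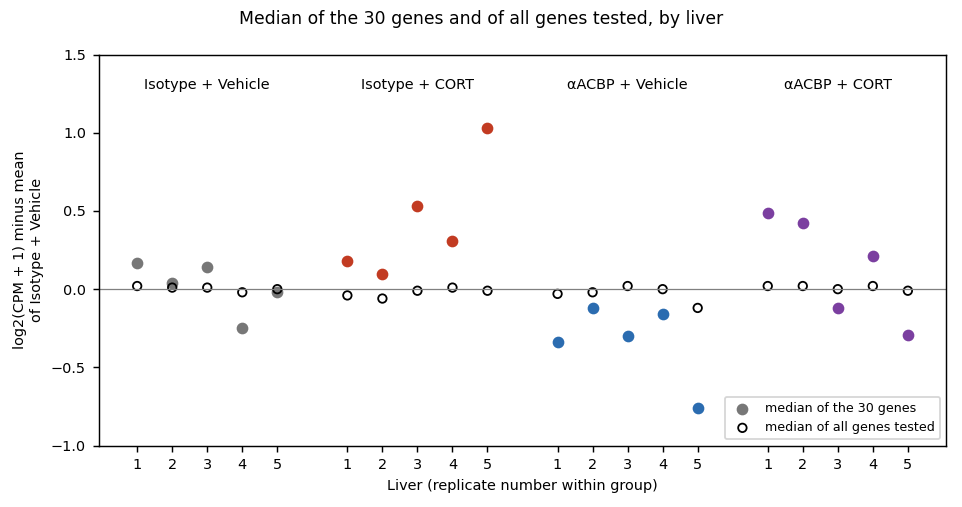
Median of the 30 genes (filled points) and of all genes tested (open points) in each of the 20 livers, as log2(CPM + 1) minus the mean of Isotype + Vehicle, with the replicate number within each group on the horizontal axis. All 5 livers of αACBP + Vehicle lie below 0 for the 30 genes, all 5 of Isotype + CORT lie above 0, and liver 5 of Isotype + CORT is the highest at 1.03. The open points are largely fixed by the normalization.

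**Figure D2:**
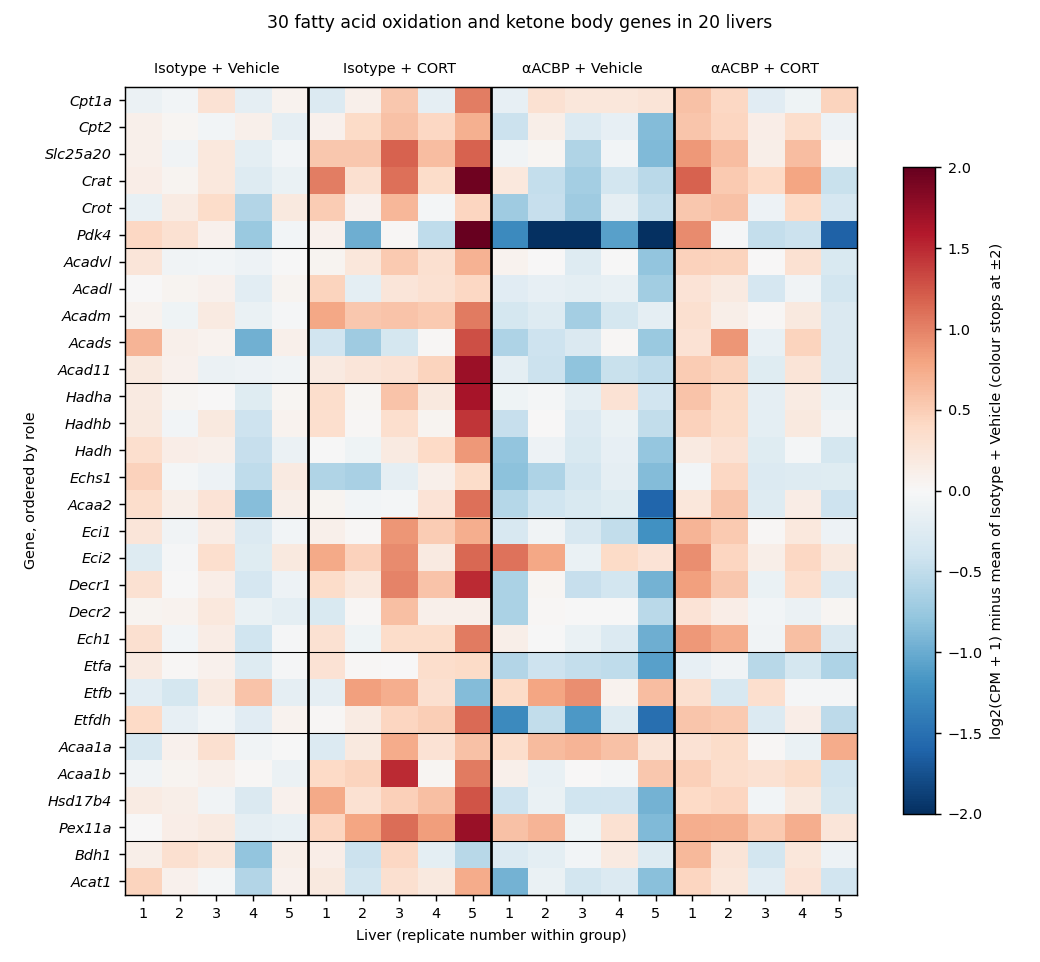
Level of each of the 30 genes (rows, ordered by role, with lines between the roles) in each of the 20 livers (columns), as log2(CPM + 1) minus the mean of Isotype + Vehicle, with the colour scale ending at 2 units in either direction. Liver 5 of Isotype + CORT is red in most rows, Etfb and Bdh1 are blue there, and Pdk4 is the darkest blue row in αACBP + Vehicle.

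The first question was what CORT does to these genes when the mice receive the isotype. Acadm, Slc25a20, Crat, Acaa1b, Hsd17b4 and Pex11a were higher with CORT, by 1.63-fold to 2.12-fold. These encode the medium-chain acyl-CoA dehydrogenase, the carnitine-acylcarnitine carrier, carnitine acetyltransferase, a peroxisomal thiolase, the peroxisomal multifunctional enzyme and a peroxisome proliferation factor. In all, 28 of 30 genes had a higher estimate with CORT, with a median log2 fold change of 0.44, where the median over all genes tested was 0.00. Of the 7 hepatocyte markers, 5 had a higher estimate, with a median of 0.12 and a range of -0.46 to 0.71. At an edgeR adjusted p of 0.05, 1 of the 7 was higher, beside 1.34% of all genes. The part of these markers was not tested. With edgeR's quasi-likelihood test and Benjamini-Hochberg adjustment over all genes tested, 6 of the 30 genes passed an adjusted p of 0.05 and none was lower, beside 3.2% of all genes tested in either direction and 1.34% higher. At an unadjusted p of 0.05 it was 14 genes, beside 15.6% of all genes. Groups did not overlap for 5 of 30 genes (Slc25a20, Acadm, Hsd17b4, Pex11a and Crat), beside 5.04% of all genes. At the further limit of a log2 fold change of 1, 2 remained (Crat and Pex11a), beside 1.94% of all genes.

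Of these rises, 3 kept their call when any 1 of the 10 livers was left out, and the sequences before their start sites are shown for that reason. They are the 250 bases before the start of Acadm, Pex11a and Slc25a20 as RefSeq gives them in GRCm38.p6, at chr3:153944644-153944893 (minus strand), chr7:79743132-79743381 (minus strand) and chr9:108661886-108662135 (plus strand), written 5′ to 3′ along the gene. Capitals mark the half-site AGGTCA of nuclear receptors, searched on both strands.
Acadm: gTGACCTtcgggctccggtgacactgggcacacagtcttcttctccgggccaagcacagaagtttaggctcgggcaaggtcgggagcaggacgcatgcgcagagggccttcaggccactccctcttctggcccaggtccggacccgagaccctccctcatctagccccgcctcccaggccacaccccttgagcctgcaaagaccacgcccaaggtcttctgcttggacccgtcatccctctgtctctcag
Pex11a: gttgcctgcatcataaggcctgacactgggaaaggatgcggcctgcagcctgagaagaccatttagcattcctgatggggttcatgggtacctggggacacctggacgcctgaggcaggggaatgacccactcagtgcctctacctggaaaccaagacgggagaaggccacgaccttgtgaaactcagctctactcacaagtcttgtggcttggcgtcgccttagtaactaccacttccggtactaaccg
Slc25a20: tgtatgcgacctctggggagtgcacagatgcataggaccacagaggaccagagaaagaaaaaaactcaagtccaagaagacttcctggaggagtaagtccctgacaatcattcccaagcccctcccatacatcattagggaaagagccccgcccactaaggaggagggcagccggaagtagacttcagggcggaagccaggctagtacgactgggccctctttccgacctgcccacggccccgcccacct
The half-site was in the window of 4 of the 25 genes with an entry (Acadm, Acadvl, Cpt1a and Echs1), which is 16% of them, beside 14% of all 32851 windows of this length. The repeat AGGTCANAGGTCA was in none of the 25 and in 0.0335% of all windows. The glucocorticoid half-site TGTTCT was in 1 of the 25 (Hadh) and in 16.1% of all windows. A gene was counted once if any of its windows held the motif, while the share of all windows counts each window, so the shares are not strictly alike. These are matches of letters within 250 bases and say nothing about binding.

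Among the carnitine shuttle genes, Slc25a20, whose product exchanges acylcarnitine for carnitine across the inner mitochondrial membrane, was 81.4, 72.0, 87.6, 66.1 and 73.1 CPM in Isotype + Vehicle and 111, 111, 172, 117 and 172 CPM in Isotype + CORT. The groups did not overlap, and the rise was 1.80-fold (log2 fold change 0.84 ± 0.20 SE, n = 5 per group, edgeR adjusted p = 0.0142). Crat, whose product moves acetyl groups between CoA and carnitine, was 63.3, 60.0, 66.8, 47.9 and 52.8 CPM with vehicle and 119, 72.7, 125, 74.6 and 226 CPM with CORT. Its groups did not overlap either, and the rise was 2.12-fold (1.09 ± 0.28 SE, edgeR adjusted p = 0.0308). The highest value, 226 CPM, was that of liver 5. The call for Crat was lost without any 1 of livers 1, 2, 4 and 5 of Isotype + Vehicle or livers 1 and 5 of Isotype + CORT, with log2 fold changes of 0.75 to 1.22 and adjusted p values up to 0.0931 over all 10 fits.

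The gate of the shuttle was not among the called genes. Cpt1a, which forms acylcarnitines at the outer mitochondrial membrane, was 110, 115, 147, 105 and 125 CPM with vehicle and 98.9, 128, 174, 106 and 244 CPM with CORT. These groups overlapped, and the log2 fold change was 0.32 ± 0.21 SE (edgeR adjusted p = 0.51). Cpt2, the inner-membrane partner, and Crot, the peroxisomal carnitine octanoyltransferase, had log2 fold changes of 0.45 and 0.32 (edgeR adjusted p = 0.161 and 0.492). Pdk4, the kinase that switches pyruvate dehydrogenase off, was 22.7, 21.1, 18, 9.64 and 16.1 CPM with vehicle and 18, 8.1, 17.1, 11.5 and 92.0 CPM with CORT. Liver 5 held the only value of Pdk4 in Isotype + CORT above the vehicle range. The Pdk4 estimate of 0.74 ± 0.85 SE (edgeR adjusted p = 0.785) turned to -0.36 without that liver.

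Of the mitochondrial acyl-CoA dehydrogenases, which take the first step of each cycle at different chain lengths, Acadm was called. It was 267, 239, 289, 231 and 249 CPM with vehicle and 437, 368, 377, 367 and 525 CPM with CORT. The lowest CORT value lay above the highest vehicle value, and the rise was 1.63-fold (log2 fold change 0.70 ± 0.16 SE, edgeR adjusted p = 0.01). Acadvl and Acadl, for very long and long chains, and Acads, for short chains, had log2 fold changes of 0.38, 0.26 and 0.08 (edgeR adjusted p = 0.306, 0.498 and 0.958). The same list held Acad11, whose location in the cell was not examined here. Acad11 had an estimate of 0.71 (edgeR adjusted p = 0.0961), with liver 5 of Isotype + CORT at 353 CPM and the other 4 livers at 121 to 146 CPM.

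None of the mitochondrial hydratase, dehydrogenase and thiolase genes and none of the double-bond enzymes was called. Hadha and Hadhb encode the subunits of the trifunctional protein and had log2 fold changes of 0.69 and 0.53 (edgeR adjusted p = 0.097 and 0.197). Hadh, Echs1 and Acaa2, for the last 3 steps on shorter chains, had 0.29, -0.18 and 0.28 (edgeR adjusted p = 0.54, 0.791 and 0.702). Decr1 and Eci2, which handle double bonds of unsaturated fatty acids, were just above the limit with 0.80 and 0.72 (edgeR adjusted p = 0.0552 and 0.0591), and Eci1, Ech1 and Decr2 had 0.48, 0.43 and 0.13 (edgeR adjusted p = 0.216, 0.383 and 0.828). The electron transfer flavoprotein genes Etfa, Etfb and Etfdh, which carry electrons from the dehydrogenases to the respiratory chain, had 0.21, 0.26 and 0.49 (edgeR adjusted p = 0.606, 0.733 and 0.336).

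Of the 4 genes listed under peroxisomal oxidation, 3 were called, beside 3.2% of all genes in either direction and 1.34% higher. This list was written with earlier results of these data known. Crot, Decr2 and Eci2, described above with other steps, also encode peroxisomal enzymes and were not called. Pex11a, a membrane protein of dividing peroxisomes, was 59.8, 65.3, 67.7, 52.2 and 53.6 CPM with vehicle and 80.8, 103, 130, 107 and 199 CPM with CORT. The groups did not overlap, and the rise was 2.08-fold (log2 fold change 1.05 ± 0.23 SE, edgeR adjusted p = 0.0102). Hsd17b4, the hydratase and dehydrogenase of the peroxisome, was 237, 229, 202, 174 and 224 CPM with vehicle and 360, 262, 294, 321 and 509 CPM with CORT. These groups were also apart (1.64-fold, 0.71 ± 0.19 SE, edgeR adjusted p = 0.0344), and the call was lost without any 1 of livers 2 to 5 of Isotype + Vehicle or livers 1 and 5 of Isotype + CORT, with adjusted p values up to 0.107.

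Acaa1b, a thiolase of the peroxisome, was 1390, 1510, 1560, 1470 and 1340 CPM with vehicle and 1920, 1970, 4090, 1490 and 2980 CPM with CORT. Liver 4 of Isotype + CORT lay within the vehicle range, and the rise was 1.71-fold (log2 fold change 0.78 ± 0.22 SE, edgeR adjusted p = 0.0478). It was lost without any 1 of the 5 Isotype + Vehicle livers or livers 3 and 5 of Isotype + CORT, with adjusted p values up to 0.166. Its paralogue Acaa1a had an estimate of 0.34 (edgeR adjusted p = 0.41). The pair share 3.49% (Acaa1a) and 6.31% (Acaa1b) of their stretches of 100 bases, so reads in those stretches could have been counted on either. The ketone body genes Bdh1, the 3-hydroxybutyrate dehydrogenase, and Acat1, the mitochondrial acetoacetyl-CoA thiolase, had log2 fold changes of -0.13 and 0.23 (edgeR adjusted p = 0.857 and 0.712). Bdh1 was 141, 163, 153, 74.8 and 141 CPM with vehicle and 142, 95.9, 174, 113 and 88.1 CPM with CORT. Acat1 was 281, 220, 201, 138 and 220 CPM with vehicle and 236, 160, 258, 238 and 347 CPM with CORT. Both pairs of groups overlapped.

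Without liver 5 of Isotype + CORT, 26 of 30 genes had a higher estimate with CORT, and the median log2 fold change was 0.28. In that fit 3 genes (Acadm, Pex11a and Slc25a20) were called, beside 2.86% of all genes. The same 3 were called without liver 2, 4 or 5 of Isotype + Vehicle, beside 1.64%, 1.95% and 1.76% of all genes. With all livers it was 3.2% of all genes.

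**Figure D3:**
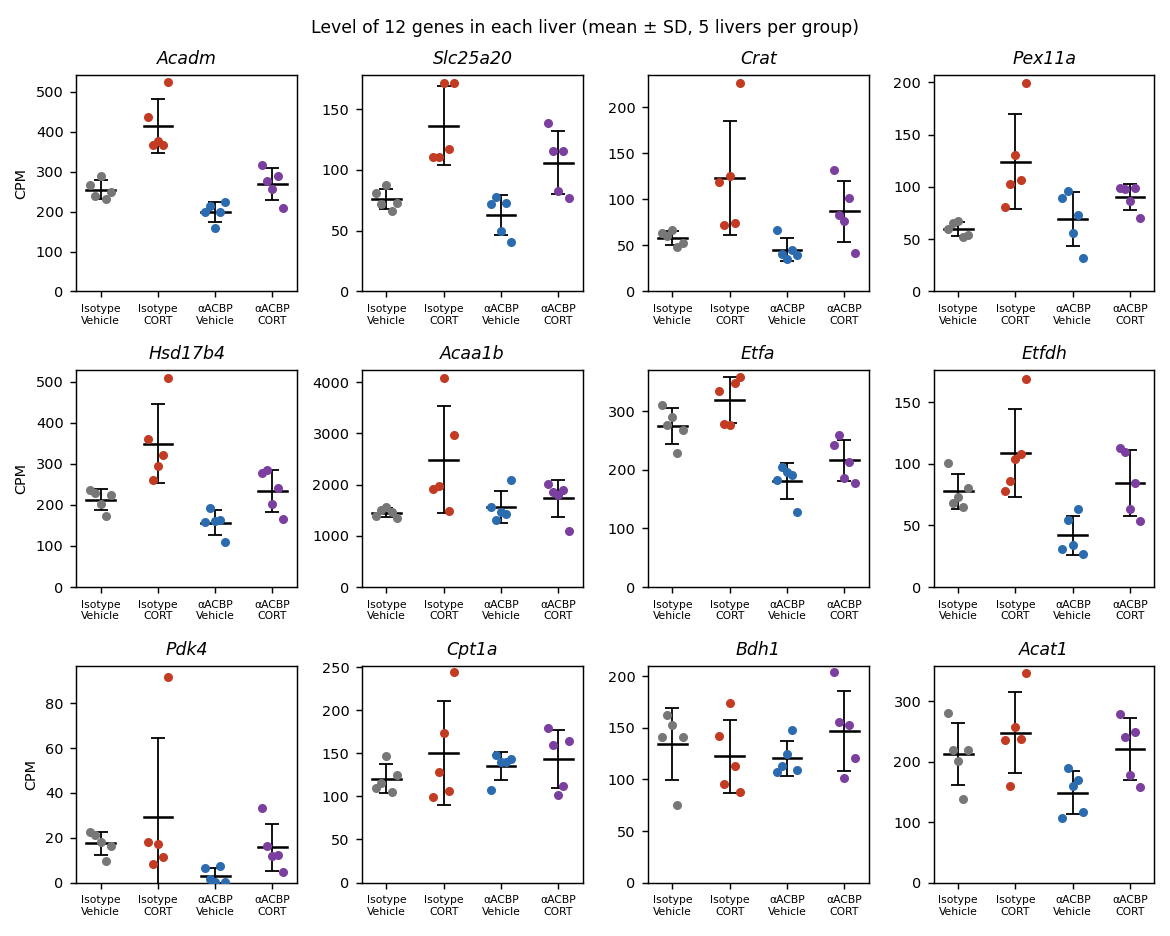
CPM of 12 of the genes in each liver (points), with the group mean (line) and SD (bar, 5 livers per group), for the 4 groups. The bar of Pdk4 in Isotype + CORT runs below 0 and is cut there because liver 5 at 92.0 CPM is far above the others, and the vehicle and CORT livers under isotype do not overlap for Acadm, Slc25a20, Crat, Pex11a and Hsd17b4.

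The second question was whether the antibody changes these genes in mice given CORT. Against Isotype + CORT, 27 of 30 genes had a lower estimate in αACBP + CORT, with a median log2 fold change of -0.30, beside 0.01 over all genes tested. The 7 hepatocyte markers had a median of -0.16, with 6 lower, and their part was not tested. Of the 30 genes, only Acadm passed the test, 1 of 30 and lower, beside 0.958% of all genes in either direction and 0.324% lower. At an unadjusted p it was 7 genes, beside 12.5% of all genes, and 0.597% of all genes were called at the 2-fold limit, which Acadm did not reach. It was 316, 276, 257, 290 and 208 CPM in αACBP + CORT, all below the 5 values of Isotype + CORT given above. The log2 fold change of Acadm was -0.62 ± 0.16 SE (edgeR adjusted p = 0.0453), which is 0.65 of the isotype level. The call was lost when any 1 of 9 of the 10 livers was left out, the exception being liver 3 of Isotype + CORT, with adjusted p values up to 0.162, and the estimate stayed between -0.68 and -0.52.

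Etfa also had no overlap between these groups, with 335, 278, 276, 348 and 359 CPM in Isotype + CORT and 243, 260, 186, 214 and 178 CPM in αACBP + CORT (log2 fold change -0.56 ± 0.16 SE, edgeR adjusted p = 0.0849). So 2 of 30 genes did not overlap, beside 3.22% of all genes. The genes called with CORT had estimates of -0.37 (Slc25a20), -0.51 (Crat), -0.52 (Acaa1b), -0.57 (Hsd17b4) and -0.45 (Pex11a), with edgeR adjusted p values of 0.47, 0.485, 0.308, 0.152 and 0.43. These compare with the same Isotype + CORT livers that gave the CORT result. Cpt1a and Pdk4 had -0.07 and -0.90 (edgeR adjusted p = 0.961 and 0.78), and both signs turned without liver 5 of Isotype + CORT, to 0.17 and 0.19. Bdh1, Acads and Echs1 were the 3 genes with an estimate above 0, at 0.26, 0.13 and 0.08 (edgeR adjusted p = 0.706, 0.951 and 0.947). Without liver 5 of Isotype + CORT, 22 of 30 genes had a lower estimate, the median was -0.12 and no gene was called, beside 0.807% of all genes.

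The third question was what CORT does under αACBP. Against αACBP + Vehicle, 27 of 30 genes had a higher estimate in αACBP + CORT, with a median log2 fold change of 0.47, beside 0.01 over all genes. Of the 7 hepatocyte markers, 6 also had a higher estimate, with a median of 0.31, and 2 had an unadjusted p of 0.05 or less. Their part in this shift was not tested. None of the 30 genes passed edgeR's test (beside 0.305% of all genes), while 17 had an unadjusted p of 0.05 or less (beside 12.7% of all genes). With DESeq2 6 passed (beside 1.93%), and with limma voom 11 (beside 2.56%). The smallest adjusted p values were those of Etfdh, Slc25a20, Crot and Eci1, with log2 fold changes of 1.02, 0.76, 0.76 and 0.74 (edgeR adjusted p = 0.064, 0.0836, 0.0888 and 0.103). Slc25a20 was 71.9, 77.9, 49.5, 73.0 and 40.7 CPM in αACBP + Vehicle and 139, 116, 82.6, 116 and 76.8 CPM in αACBP + CORT, where liver 5 of αACBP + CORT lay below liver 2 of αACBP + Vehicle. The groups overlapped for all 30 genes, while they did not for 2.74% of all genes. Without liver 5 of αACBP + CORT, 5 genes were called (Slc25a20, Crat, Crot, Eci1 and Etfdh), beside 1.58% of all genes. Etfdh alone was called without liver 4 of αACBP + Vehicle, beside 0.261% of all genes, and also without liver 5 of Isotype + CORT, which is in neither group.

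The comparisons of CORT under isotype and under αACBP share no liver. The estimate was above 0 in both for 25 of 30 genes, above 0 under isotype alone for Acaa1a, Eci2 and Etfb, and above 0 under αACBP alone for Echs1 and Bdh1. Over the 30 genes, which share livers within each comparison and are not independent, the estimates had a Pearson correlation of 0.27. The test of the difference itself, the interaction, called 0 of 30 genes with edgeR (beside 0.143% of all genes), and 5 had an unadjusted p of 0.05 or less (beside 10.6%). These 5 were Echs1 at 0.67 ± 0.29 SE and Eci2, Etfb, Pex11a and Acaa1a at -0.81 ± 0.30, -0.78 ± 0.36, -0.67 ± 0.33 and -0.56 ± 0.27, with edgeR adjusted p values of 0.278 to 0.474.

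The fourth question was what the antibody does without CORT. Under vehicle, 24 of 30 genes had a lower estimate with αACBP, with a median log2 fold change of -0.32, beside -0.02 over all genes. The αACBP + Vehicle livers are also those used for CORT under αACBP, so the shifts in both comparisons are not separate results. Etfa and Etfdh passed the test, both lower, 2 of 30 beside 5.14% of all genes in either direction and 2.36% lower. Etfa encodes a subunit of the electron transfer flavoprotein, and Etfdh the dehydrogenase that passes its electrons to ubiquinone. Neither reached a log2 fold change of 1, as 1.3% of all genes did with a call, and 14 of the 30 had an unadjusted p of 0.05 or less, beside 20.6% of all genes.

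Etfa was 311, 277, 291, 229 and 268 CPM in Isotype + Vehicle and 183, 205, 197, 192 and 128 CPM in αACBP + Vehicle. The groups did not overlap, and the level fell to 0.657 of the isotype level (log2 fold change -0.61 ± 0.16 SE, edgeR adjusted p = 0.0274). Etfdh was 101, 68.1, 73.4, 65.2 and 80.1 CPM with isotype and 31.2, 54.3, 33.9, 63.6 and 26.4 CPM with αACBP. Its groups were apart by a narrow gap, 65.2 against 63.6 CPM, and the level fell to 0.54 (-0.89 ± 0.25 SE, edgeR adjusted p = 0.0349). Both calls were lost without any 1 of livers 1, 2 and 5 of Isotype + Vehicle or livers 1 and 5 of αACBP + Vehicle, and that of Etfdh also without liver 3 of αACBP + Vehicle, with adjusted p values up to 0.0919 for Etfa and 0.117 for Etfdh. Without liver 5 of αACBP + Vehicle, no gene was called (beside 1.88% of all genes), 25 of 30 had a lower estimate and the median was -0.27. Without liver 4 of Isotype + Vehicle, 4 genes were called lower (Etfa, Etfdh, Echs1 and Crot), beside 7.99% of all genes. The summed hepatocyte markers were 68000 to 117000 CPM in Isotype + Vehicle and 38100 to 92000 CPM in αACBP + Vehicle. Of the 7 hepatocyte markers, 5 had a lower estimate with αACBP, with a median log2 fold change of -0.44, and 4 had an unadjusted p of 0.05 or less. Their part in the lower estimates of the 30 genes was not tested.

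Etfb, the other flavoprotein subunit, had an estimate of the opposite sign. It was 28.5, 25.7, 37.9, 49.9 and 29.1 CPM in Isotype + Vehicle and 43.4, 58.2, 64.1, 35.1 and 51.5 CPM in αACBP + Vehicle (log2 fold change 0.56 ± 0.25 SE, edgeR adjusted p = 0.199). In the annotation, 43.5% of its exon bases overlap the gene Etfbl on the same strand, so its count is uncertain. Across the 20 livers, the log2 levels of Etfb had a median correlation of -0.46 with the other 29 genes, while 28 of the 30 genes had a median correlation above 0.2. The livers share library depth and group, and after removal of the group means the median for Etfb was -0.43.

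Pdk4 was 6.36, 1.66, 0.121, 7.43 and 0.0482 CPM in αACBP + Vehicle, all below the Isotype + Vehicle values given above. Livers 3 and 5 lay below the floor of 3 counts. The estimate was -2.49 ± 0.91 SE (edgeR adjusted p = 0.123). Pdk4 therefore did not overlap between the groups and did not pass the test, and it was called with DESeq2. In all, 5 of 30 genes did not overlap under vehicle (Acadm, Etfa, Etfdh, Acad11 and Pdk4), beside 7.13% of all genes. The 6 genes with a higher estimate with αACBP under vehicle were Cpt1a, Acaa1a, Acaa1b, Eci2, Etfb and Pex11a, at 0.17, 0.50, 0.11, 0.52, 0.56 and 0.22, and none was called. The ketone body genes Bdh1 and Acat1 had -0.16 and -0.51 (edgeR adjusted p = 0.76 and 0.154).

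**Figure D4:**
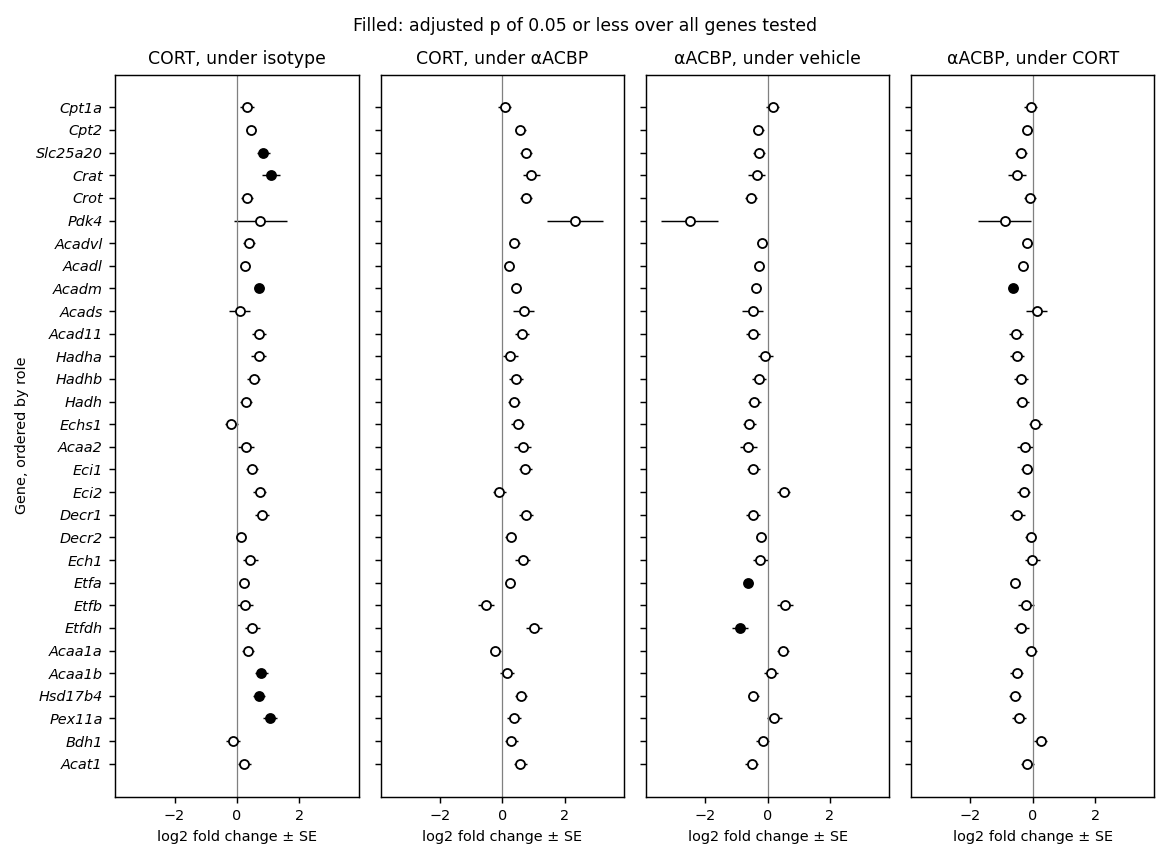
Log2 fold change (points) with its SE (bars) for the 30 genes in 4 comparisons, ordered by role, with genes at an adjusted p of 0.05 or less filled. With CORT under isotype 6 genes are filled and 28 lie right of 0, with αACBP under vehicle 2 are filled and 24 lie left of 0, with αACBP under CORT 1 is filled, and with CORT under αACBP none is.

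The last comparison set αACBP + CORT against Isotype + Vehicle. The estimates lay between -0.35 and 0.60 with a median of 0.18, and 0 of 30 genes passed edgeR's test (beside 0.0809% of all genes). An unadjusted p of 0.05 or less was found for 4 (beside 7.59%), and 2 passed with limma voom (Pex11a and Slc25a20, beside 3.62%). Pex11a was 99.3, 97.9, 86.1, 99.1 and 70.1 CPM in αACBP + CORT, all above the Isotype + Vehicle values given above, the only one of the 30 genes whose groups did not overlap, beside 3.31% of all genes (log2 fold change 0.60 ± 0.23 SE, edgeR adjusted p = 0.437). A p that misses the limit does not show that the groups were alike.

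Levels differed widely among the 30 genes. In CPM per kilobase of annotated exon, a length that includes exons of all transcripts, Acaa1b was the highest in Isotype + Vehicle at 316, followed by Acaa2 at 89.8, Acadvl at 82.6 and Ech1 at 78.8. Pdk4 was the lowest at 4.61, below Hadhb at 4.84 and Crat at 5.44. The called genes Acadm, Hsd17b4, Pex11a and Slc25a20 were at 40.5, 40.0, 18.8 and 10.9 on this scale.

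Genes of the same pathways outside these 30 were counted in lists. Beside these lists, 3.2% of all genes were called with CORT under isotype and 0.958% with αACBP under CORT. It was 5.14% with αACBP under vehicle and 0.305% with CORT under αACBP. With CORT under isotype, among further peroxisomal genes, Scp2, the sterol carrier thiolase, rose (0.69) and Nudt7, a CoA hydrolase, fell (log2 fold change -1.01), while Ehhadh was at 0.50 (edgeR adjusted p = 0.267). Of 12 tested genes for acyl-CoA synthesis and import, the carnitine transporter Slc22a5 rose (1.31, edgeR adjusted p = 0.000853), Slc27a2 rose (0.71) and Acsl5 fell (-0.66). No gene of the 13 tested in further mitochondrial oxidation passed with CORT under isotype.

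Of 20 further PPARα targets, 7 were called higher and none lower with CORT under isotype, beside 1.34% of all genes called higher. The median log2 fold change of the 20 was 1.06, and the 7 included Cd36 (1.68), Cyp4a10 (2.14), Mgll (1.09) and Vnn1 (2.08). Cyp4a10, a fatty acid hydroxylase, was 281 ± 77.1 CPM in Isotype + Vehicle, 1240 ± 416 in Isotype + CORT, 218 ± 100 in αACBP + Vehicle and 493 ± 179 in αACBP + CORT (SD, n = 5). With αACBP under CORT, Cyp4a10 and the fatty acid transporter Cd36 were the 2 called, at -1.33 and -1.08 (edgeR adjusted p = 0.023 and 0.0173). Ppara itself had an estimate of 0.65 with CORT under isotype (edgeR adjusted p = 0.168).

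With αACBP under vehicle, Ehhadh, the bifunctional enzyme of the peroxisome, fell from 206 ± 41.3 to 99.9 ± 11.1 CPM (SD, n = 5, log2 fold change -1.04, edgeR adjusted p = 0.0114), and Acox2, Scp2 and Pecr of the same list fell too (-0.69, -0.65 and -0.80). Acsl5 (-1.03), the monocarboxylate transporter Slc16a1 (-1.06), Pcca (-0.91) and the pyruvate carrier subunit Mpc1 (-0.82) were also called lower. With CORT under αACBP, Scp2 was the only called gene of the peroxisomal list, at 0.80 (edgeR adjusted p = 0.0391). Both comparisons use the same αACBP + Vehicle livers, so its fall and its rise are not separate results.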

How the data were processed

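Liver RNA of 20 female mice, 5 in each of 4 groups, was sequenced by the authors. They aligned reads with HISAT2 and used HTSeq-count in its union mode, keeping non-unique features, and deposited the raw counts per gene without normalization. The paper's methods name GRCm39 and the submitters' processing notes name mm10 with HISAT2 and HTSeq, so the build could not be settled here. The annotation release and the strand setting are not given in the sources used here, so reads of genes on opposite strands may not be separable. On the opposite strand, annotated exons overlap 38.2% of the exon bases of Acadvl, 31.0% of Hadha, 24.4% of Crat and 22.5% of Bdh1.

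Counts were tested with edgeR 4.0.16 in R 4.3.3 (TMM, robust quasi-likelihood test, filterByExpr, 1 model of the 4 groups without covariates). Lines that name no gene, 59.6% to 63.4% of all lines' counts per liver, were left out. The limit for a call was 0.05 on the p adjusted by Benjamini-Hochberg over the 16071 genes tested. Each SE of a log2 fold change was derived from the test, as the absolute log2 fold change divided by the square root of its F statistic. The study's added limit, an absolute log2 fold change of 1, is given beside it. Promoter sequences are RefSeq's and exon lengths GENCODE M39's, in which 91.4% of the identifiers and all 30 genes were found. Of the 40 same-group pairs of livers, none agreed within sampling noise.

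The 30 genes and all lists were chosen with earlier results of these data known. Values per liver are given for genes called in any comparison and for Cpt1a, Pdk4, Bdh1, Acaa1b, Pex11a and Acat1 and, chosen after its values were seen, for Etfb, other genes by estimate, and of each pathway list at most 4 called genes plus Ppara and Ehhadh. Some results under this rule are not reported here. The scripts were tested on simulated data. Alternatives were DESeq2 1.42.0 (test and size factors), limma 3.58.1 voom with quality weights, other filters, library sizes without the 20 most abundant genes, other call rules, a block for the replicate number, fits of just the compared groups, and leaving out each liver. Leaving out liver 5 of Isotype + CORT together with liver 5 of αACBP + Vehicle was chosen after seeing the data.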

Additional observations from a re-analysis of the deposited data

Results flagged for a closer look

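In 120 combinations of a gene and a group, 15 single livers lay far from the other 4 of their group by Dixon's test at its 95% limit for 5 values, 0.71, where chance gives about 1 in 20. Of these, 6 were the highest value and came from liver 5 of Isotype + CORT. There Acads was 160 CPM (next liver 65.5), Hadha 420 CPM (next 198), Hadhb 205 CPM (next 95.6), Acaa2 1200 CPM (next 672), Acad11 353 CPM (next 146) and Pdk4 92.0 CPM (next 18). In liver 5 of αACBP + Vehicle, Acadl was 117 CPM (next 161) and Etfa 128 CPM (next 183), both the lowest. In liver 4 of Isotype + Vehicle, Acaa2 was 308 CPM (next 606) and Bdh1 74.8 CPM (next 141). The others were Cpt1a at 107 CPM (lowest) and Crat at 67.1 CPM (highest) in liver 1 of αACBP + Vehicle, Acadvl at 382 CPM (highest) in liver 1 of Isotype + Vehicle, Echs1 at 198 CPM (highest) in liver 2 of αACBP + CORT, and Acaa1b at 1100 CPM (lowest) in liver 5 of αACBP + CORT.

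Outside the 30 genes, the CORT effect on Ppard, which encodes the nuclear receptor PPARδ, differed between the antibodies. The log2 fold change with CORT was -2.28 ± 0.30 SE under isotype and 1.29 ± 0.29 SE under αACBP, and the interaction was 3.57 ± 0.41 SE (edgeR adjusted p = 4.58e-05).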

How the results depend on the processing

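Counts of called genes among the 30 moved with the test used (1 liver left out means a liver of the groups compared). Shares of all genes called stand in brackets. With CORT under isotype, 6 genes were called (3.2%). It was 8 with DESeq2 (5.91%) or at least 10 counts in every liver (5.04%), and 4 with limma voom (3.06%) or only the groups compared (2.17%). It was 2 with the 2-fold limit (1.94%), 14 at an unadjusted p (15.6%) and 3 without both livers named in the methods (3.58%). With 1 liver left out it was 3 to 7 (1.64% to 3.95%). With αACBP under CORT, 1 was called (0.958%), and 2 with DESeq2 (2.79%) or at least 10 counts in every liver (1.88%). It was 0 with limma voom (0.691%), without the filter (0.606%), with the 2-fold limit (0.597%) or with only the groups compared (0.191%). It was also 0 with the replicate block (0.753%) or without both livers (1.07%). At an unadjusted p it was 7 (12.5%), and 0 to 1 with 1 liver left out (0.37% to 1.92%). It was 2 without liver 5 of αACBP + Vehicle, a group outside this comparison. With CORT under αACBP, 0 were called (0.305%), 6 with DESeq2 (1.93%), 11 with limma voom (2.56%) and 17 at an unadjusted p (12.7%). With 1 liver left out it was 0 to 5 (0.0303% to 1.58%). With αACBP under vehicle, 2 were called (5.14%), 5 with DESeq2 (9.86%), 8 with limma voom (11.5%) and 0 with the 2-fold limit (1.3%). It was 14 at an unadjusted p (20.6%), 1 with the replicate block (3.53%), and 0 to 4 with 1 liver left out (1.11% to 7.99%). For αACBP + CORT against Isotype + Vehicle, 0 were called (0.0809%), 2 with limma voom (3.62%), 1 with only the groups compared (0.915%) and 4 at an unadjusted p (7.59%). For the interaction, 0 were called (0.143%) and 5 at an unadjusted p (10.6%). The causes were not tested.

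The replicate numbers did not pair the livers. Same-number livers' deviations had mean correlations between -0.0435 and 0.0466, and 1 of 20 livers correlated best with its own number. With the replicate block, 4 genes were called with CORT under isotype, beside 2.62% of all genes.

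Signs of uncalled estimates turned in some fits. With limma voom, Pdk4 with CORT under isotype was -0.17 and Cpt1a with αACBP under CORT 0.04. Without both livers these were -0.38 and 0.18, Pdk4 with αACBP under CORT was 0.21, and Acaa1b with αACBP under vehicle was -0.02. With 1 liver left out, the range was -0.36 to 0.96 for Pdk4 with CORT under isotype, -0.19 to 0.17 for Cpt1a and -1.37 to 0.19 for Pdk4 with αACBP under CORT, -0.01 to 0.18 for Cpt1a with CORT under αACBP, and -0.02 to 0.16 for Acaa1b with αACBP under vehicle. For αACBP + CORT against Isotype + Vehicle it was -0.63 to 0.07 for Pdk4, -0.03 to 0.23 for Bdh1 and -0.06 to 0.18 for Acat1. No called estimate changed sign in 395 refitted values under other settings or 450 with 1 liver left out, and 40 and 139 of these lost the call. Of the 30 genes, Pdk4 alone lay below 3 counts, in 2 livers.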

Other observations

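Regulators of these pathways also differed between the groups. With CORT under isotype, 4 of 25 were called, beside 3.2% of all genes. Creb3l3 (log2 fold change 0.73, edgeR adjusted p = 0.0174) and Tfeb (0.72, edgeR adjusted p = 0.0457) were higher. Ppard (-2.28, edgeR adjusted p = 0.000231) and Acacb (-1.54, edgeR adjusted p = 0.0271) were lower. Creb3l3 encodes a liver transcription factor of the fasting response, Tfeb a regulator of lysosome genes, and Acacb the acetyl-CoA carboxylase whose product malonyl-CoA is known to inhibit CPT1. With αACBP under vehicle, 4 of the 25 were called higher and 1 lower, beside 5.14% of all genes in either direction. They included Tfeb (0.98), Esrra (0.81) and Cebpb (1.04), which were higher, and Ppard (-1.73), which was lower.

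Of 12 tested genes of the pyruvate dehydrogenase switch, Pdha1 (0.60) rose and Dlat (-0.70) fell with CORT under isotype, beside 3.2% of all genes called. Of 10 glucocorticoid response genes, Fkbp5 was the only one called in that comparison (1.70, edgeR adjusted p = 0.000722). The metallothionein genes Mt1 and Mt2, 2 of these 10, were called higher with αACBP under vehicle (1.38 and 2.12), beside 5.14% of all genes in either direction. No hypothesis was tested.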
